A study of Brassica rapa subsp. pekinensis with 10 samples.

Results

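A short cold treatment was followed in Shin-Hong, a variety of Chinese cabbage (Brassica rapa subsp. pekinensis), and the arrays of its later cold were set against those of its earlier cold. The comparison took 4 of the 10 arrays of the series: Shin-Hong after 15 and 30 min of cold (early) and after 60 and 120 min of cold (late). Each array was 1-colour and reported one intensity for each of 47548 features named Brapa_ESTC, and every one of these features was described. The remaining arrays were Man-Su, the second variety, at the same 4 times of cold, and an array labelled normal for each variety. Both varieties are given as genotypes with no introduced allele, and the treatment is given only as cold stress with its minutes. The sources used here state no tissue, plant age or temperature. Each time and variety had 1 array, so the 15 and 30 min arrays stood in for replicates of early cold, and the 60 and 120 min arrays for replicates of late cold. Whether RNA of several plants was pooled is not stated in the sources used here, and the spread between arrays holds the difference between times as well as measurement error.

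Plants sense cold within minutes. In the related plant Arabidopsis thaliana, calcium enters the cytosol and the transcription factor ICE1 acts on the CBF (DREB1) genes, whose products are themselves transcription factors that are made early and for a short time. Their targets, the COR genes, encode proteins that protect membranes and cell contents, and these accumulate later. None of the features could be tied to these genes, since the deposited files give no gene name or probe sequence with the feature IDs. The features are therefore described by their levels and by the shape of their time course. In RNA from bulk tissue, fewer cells of a type and less RNA per cell cannot be told apart.

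Values are given as log2 intensity, so that 1 unit is 2-fold. The median feature lay at 12.06, 12.07, 12.07 and 12.08 in the Shin-Hong arrays of 15, 30, 60 and 120 min. The dim end differed. The random-sequence control, a measure of signal without a matching transcript, lay at 5.58, 5.42, 5.52 and 5.74, and 271, 201, 272 and 585 features fell below it. The 1st percentile of the features was 6.40, 6.72, 6.39 and 5.39. The 120 min array thus had both the highest control and the lowest dim features of the 4. Across features, the arrays of 15, 30 and 60 min correlated with one another at 0.983 to 0.994, and the 120 min array with each of them at 0.963 to 0.964, as a description over 47548 features on shared probes. In Man-Su, the 30 min array had 387 features below its control, against 174 to 184 on the other Man-Su cold arrays. The normal and the cold arrays did not pair by their variety labels. For the normal array labelled Man-Su the correlations were 0.938 to 0.962 with Shin-Hong in cold and 0.928 to 0.931 with Man-Su in cold. For the one labelled Shin-Hong they were 0.899 to 0.907 and 0.933 to 0.957. Whether the labels of the normal or of the cold arrays are exchanged, if either, cannot be told from these values. The variety names used here are those of the labels. No comparison with a normal array of one variety was therefore made, and levels are read against both normal arrays together.

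The first comparison asked which transcripts differed between late and early cold. Both late arrays lay above both early arrays in 8924 features (18.8%), and below them in 9682 (20.4%). In Man-Su the same held for 7510 (15.8%) and 8492 (17.9%). With the arrays in random order, 2 late arrays would lie wholly above or wholly below 2 early arrays with a probability of 0.333. The shares of both directions together are to be read against that value. These counts carry no test and do not by themselves set late apart from early cold. With limma, the moderated linear model fitted across all features, 0 features (percent called 0) passed a Benjamini-Hochberg adjusted p of 0.05 for late minus early. The smallest adjusted p was 0.209, and 3444 features had an unadjusted p under 0.05. A slope per doubling of cold time also called 0 features (0%), with a smallest adjusted p of 0.206 and 5516 at an unadjusted p under 0.05. Either fit had 2 residual degrees of freedom, and an exact permutation test of 2 arrays against 2 cannot go below a two-sided p of 0.333.

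The pair of late arrays did not resemble each other as the early pair did. The SD over features of the step from 15 to 30 min was 0.21 log2 units, that from 30 to 60 min was 0.33, and that from 60 to 120 min was 0.55. A 2-fold or larger step was upward in 102 features and downward in 23 from 15 to 30 min. From 30 to 60 min the counts were 317 and 233, and from 60 to 120 min they were 1103 and 2025. The spread that limma used for late minus early was therefore set mainly by the last step. Without the 120 min array, 458 features were called higher (0.963%) and 376 lower (0.791%) at 60 min than at 15 and 30 min, with 1 residual degree of freedom and the spread taken from the early pair alone. Without the 60 min array, 14004 were called. The count for late minus early thus depended on which late array was kept. Without the 60 min array, late minus early and the 120 min comparison given later are the same fit, so their counts are the same result.

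Large differences that did not hang on a single late array were few. In 129 features (0.271%) both late arrays lay at least 2-fold above both early arrays, and in 79 (0.166%) they lay at least 2-fold below. The corresponding counts in Man-Su were 10 (0.021%) and 15 (0.0315%). Of the 129, 127 were at least 1 log2 unit above the random-sequence control on all 4 arrays, a level called measured from here on. Of the 79, 52 were measured, and of all 47548 features 46390 were. The higher features lay still further from early cold at 120 min than at 60 min in 93 of 129, by 2-fold or more in 9. The lower features did so in 62 of 79, by 2-fold or more in 16. In Man-Su, late minus early had the same sign in 111 of the 129 (86%, all features 54.1%) and reached 2-fold in 33 (25.6%, all features 0.404%). For the 79 lower features the counts were 47 (59.5%, all features 45.9%) and 5 (6.33%, all features 0.332%).

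Time courses that went one way were kept apart from those that moved in 1 array, by rules of size that carry no test. A steady course had 3 steps in one direction, each of at least 0.25 log2 units, and a total of at least 1 unit from 15 to 120 min. This gave 130 upward features (0.273%) and 111 downward features (0.233%). Among the upward features the total had a median of 1.69 units (3.24-fold) and ran from 1.03 to 5.09, with 52 at 4-fold or more. Among the downward features the median was -1.80 (3.49-fold), with a range of -5.42 to -1.01 and 40 at 4-fold or more. All 130 upward features were measured on every Shin-Hong array. Of the downward features, 93 of 111 were, and 12 lay below the control on at least 1 array. The widest downward course among the measured features was -3.72. Just inside and just outside the threshold on the total, the values were 1.03 and 0.99 upward and -1.01 and -0.99 downward, and 11 features in each direction missed on size alone.

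The feature with the largest upward course was Brapa_ESTC000600. Its level was 7.24 at 15 min, 8.04 at 30 min, 9.90 at 60 min and 12.33 at 120 min in Shin-Hong. In Man-Su it was 8.68, 9.79, 10.48 and 12.83, and on the normal arrays 7.96 and 7.27. The 15 min array of Shin-Hong was the lowest of all 10, and the 120 min arrays of both varieties were the highest. The total was 5.09 units (34.2-fold) in Shin-Hong and 4.15 units (17.8-fold) in Man-Su. Late minus early was 3.48 ± 0.80 (SE, limma adjusted p = 0.529), and the slope was 1.71 ± 0.17 per doubling of cold time (limma adjusted p = 0.206). The features named here were chosen by their change from 15 to 120 min on these same arrays. Their estimates and p-values, and the values with an array left out, are therefore a description. Late minus early was 4.70 without the 60 min array and 2.26 without the 120 min array. It was 3.08 without the 15 min array and 3.88 without the 30 min array. Its difference between varieties was 1.06 ± 1.36 (limma adjusted p = 1).

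The second, Brapa_ESTC006796, moved earlier. Its levels in Shin-Hong were 10.01, 12.46, 13.57 and 14.28, and in Man-Su 10.07, 13.01, 14.27 and 14.19, against 9.27 and 9.67 on the normal arrays. Its largest step in both varieties was the first, and every cold array lay above both normal arrays. The total was 4.27 units (19.3-fold) in Shin-Hong and 4.12 units (17.4-fold) in Man-Su. Late minus early was 2.70 ± 0.79 (SE, limma adjusted p = 0.604). It was 1.47 without the 15 min array and 3.92 without the 30 min array. Without the 60 min array it was 3.05, and without the 120 min array 2.34. The slope was 1.39 ± 0.18 per doubling (limma adjusted p = 0.206), and the difference between varieties was 0.00 ± 1.45 (limma adjusted p = 1).

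Among the downward courses, Brapa_ESTC032280 lay at 12.47, 11.98, 10.29 and 8.74 in Shin-Hong. In Man-Su it stayed between 8.70 and 8.80 at all 4 times, and the normal arrays read 9.46 and 9.28. Shin-Hong therefore began well above Man-Su and both normal arrays and ended at the level of Man-Su. The total was -3.72 (13.2-fold) in Shin-Hong and -0.10 in Man-Su. Late minus early was -2.71 ± 0.52 (SE, limma adjusted p = 0.457). It was -2.46 without the 15 min array and -2.95 without the 30 min array. Without the 60 min array it was -3.48, and without the 120 min array -1.93. The slope was -1.29 ± 0.13 per doubling (limma adjusted p = 0.206). The difference between varieties was -2.70 ± 0.63, with a limma p of 0.0033 before adjustment and an adjusted p of 1.

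Brapa_ESTC050084 lay at 12.41, 11.61, 10.56 and 9.38 in Shin-Hong, and at 10.72, 10.84, 9.66 and 9.63 in Man-Su. The normal arrays read 10.42 and 10.91. Early Shin-Hong was above all other arrays, and the late arrays of both varieties lay within or below the normal ones. The total was -3.03 (8.17-fold) in Shin-Hong and -1.09 (2.12-fold) in Man-Su. Late minus early was -2.04 ± 0.46 (SE, limma adjusted p = 0.526). With each array left out in turn it was -1.64 without 15 min and -2.44 without 30 min. Without 60 min it was -2.63, and without 120 min -1.45. The slope was -1.01 ± 0.08 per doubling (limma adjusted p = 0.206).

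**Figure D1:**
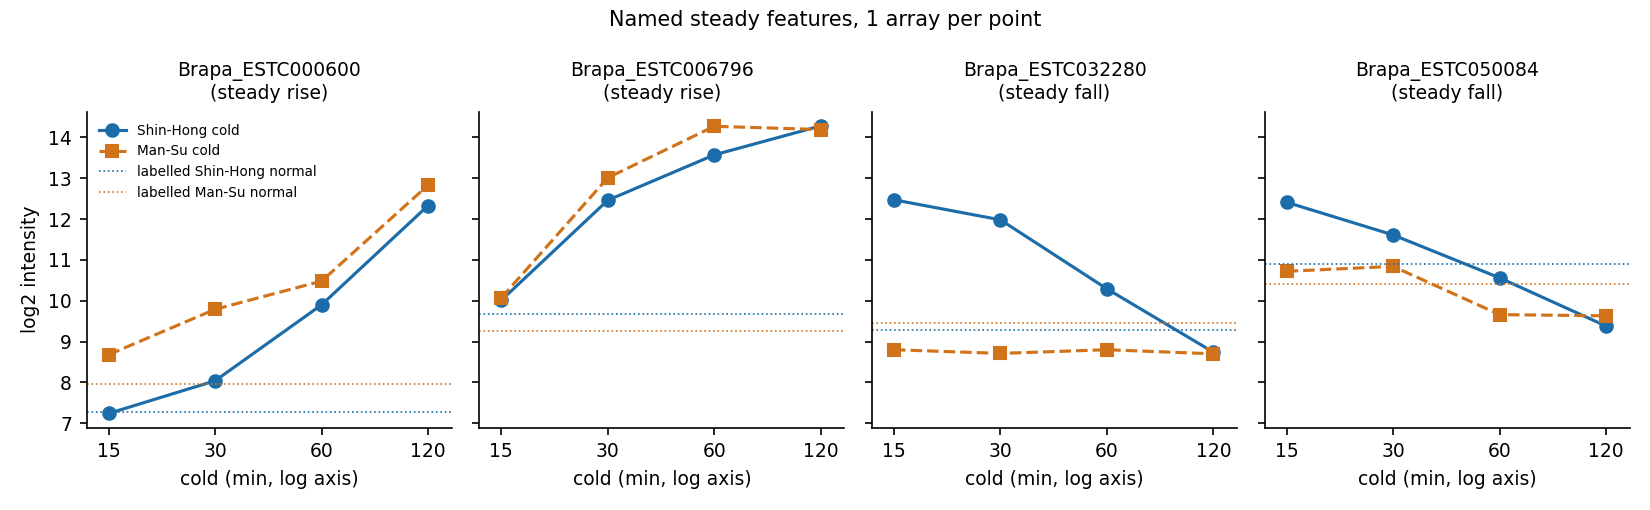
Log2 intensity (vertical axis) against minutes of cold (horizontal axis, log scale) for the 4 features named in the text, 1 point per array, with lines joining the arrays of a variety and dotted lines at the normal arrays. Brapa_ESTC000600 and Brapa_ESTC006796 lie highest at 120 min in Shin-Hong and start low in both varieties, and Brapa_ESTC032280 runs from 12.47 to 8.74 in Shin-Hong while Man-Su stays at 8.70 to 8.80.

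The next largest steady features, chosen by the same rule and given without an ID, differed in when they moved. The third feature went from 10.00 at 15 min to 12.76, 13.90 and 14.20, with most of its total in the first step, and Man-Su read 10.82, 13.17, 14.17 and 14.51. The fourth went from 10.83 to 11.30, 12.66 and 14.47, with its largest step last, and Man-Su read 11.97, 12.51, 13.50 and 13.36. From 15 to 120 min the third went 18.3-fold in Shin-Hong and 12.9-fold in Man-Su, and the fourth 12.5-fold and 2.63-fold. Ranks 3 to 10 upward had totals of 8.45-fold to 18.3-fold in Shin-Hong, and Man-Su totals of 2.60-fold to 12.9-fold in the same direction in all of them. Ranks 3 to 10 downward had totals of 5.80-fold to 7.13-fold. Their Man-Su totals ran from -1.89 to 0.54 log2 units, and 2 of these were upward.

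The 3 steps were not equal in weight. The largest step was that from 15 to 30 min in 15 of the 130 upward features, that from 30 to 60 min in 50 and that from 60 to 120 min in 65. For the 111 downward features the counts were 8, 37 and 66. Read in Man-Su, whose arrays took no part in the choice, 11 of the 15 earliest upward features also had their largest step from 15 to 30 min (73.3%, all features 34.5%), with median Man-Su steps of 0.72, 0.45 and 0.20. The 50 with a middle step divided in Man-Su into 14, 20 and 16 over the 3 steps, and the 65 with a last step into 12, 26 and 27. Over all features the shares of the largest upward step were 34.5%, 39.3% and 26.2%. Downward, the largest Man-Su step was the middle one in 22 of the 37 features with a middle step in Shin-Hong (59.5%) and also in 35 of the 66 with a last step (53%), against 39.8% of all features. It was the last in 16 of the 66 (24.2%, all features 26.4%). The first and the middle Man-Su step both use its 30 min array, and the counts carry no test.

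In Man-Su, late minus early had the Shin-Hong sign in 122 of the 130 upward features (93.8%), against 54.1% of all features, and reached 0.5 log2 units in 68 (52.3%, all features 4.48%) and 1 unit in 28 (21.5%, all features 0.404%). The median was 0.52. Of the 111 downward features, 79 (71.2%, all features 45.9%) had the same sign, 41 (36.9%, all features 2.93%) reached 0.5 units and 17 (15.3%, all features 0.332%) reached 1, with a median of -0.30. Without the Man-Su 30 min array, at 60 and 120 min against 15 min, the counts at 0.5 units were 75 of 130 upward (57.7%, all features 4.15%) and 39 of 111 downward (35.1%, all features 2.7%). The steady rule itself, applied to Man-Su, gave 98 upward and 8 downward features, and 14 and 2 of them were shared with Shin-Hong. The upward share was therefore 10.8% of the Shin-Hong set, where 98 of all 47548 features met the rule in Man-Su. It was 14.3% of the Man-Su set, where 0.273% of all features were in the Shin-Hong set. Downward it was 1.8% of the Shin-Hong set, where 8 of all 47548 features met the rule in Man-Su. It was 25% of the Man-Su set, where 0.233% of all features were in the Shin-Hong set. The rule uses both steps that hold the Man-Su 30 min array. From 15 to 30 min in Man-Su 323 features rose 2-fold or more and 2640 fell. From 30 to 60 min 1816 rose and 336 fell. The part of this in the Man-Su counts was not tested.

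The test of the difference between varieties called 0 features (0%) by limma on the 8 cold arrays, with a smallest adjusted p of 0.167 and 1449 features at an unadjusted p under 0.05. Late minus early in Man-Su alone also called 0 (0%), with 1722 at an unadjusted p under 0.05 and a smallest adjusted p of 0.923. No steady feature can therefore be said to differ between the varieties.

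**Figure D2:**
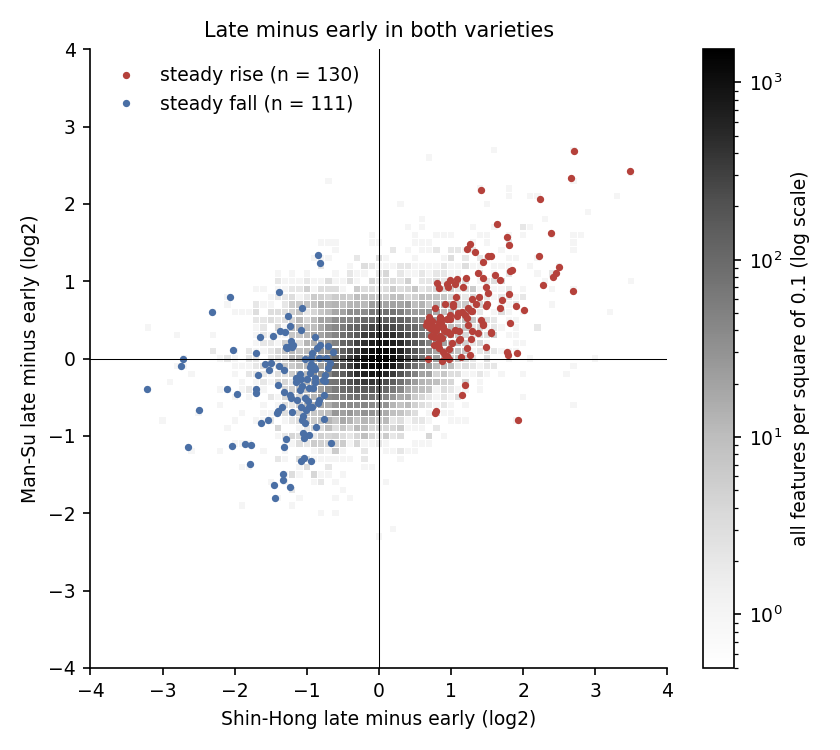
Late minus early in Man-Su (vertical axis) against late minus early in Shin-Hong (horizontal axis), both in log2 units, with grey shading for the density of all 47548 features and coloured points for the members of the steady classes. The upward steady members lie mostly above 0 in Man-Su (122 of 130), and the downward ones mostly below 0 (79 of 111).

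The upward features had class medians of 10.82, 11.26, 12.12 and 12.89 over the 4 Shin-Hong arrays and 11.41, 11.85, 12.30 and 12.48 in Man-Su, with 11.19 and 10.97 on the normal arrays. At 15 min 83 of 130 (63.8%, all features 38.6%) lay below both normal arrays, and at 120 min 121 (93.1%, all features 39%) lay above both. The downward features had medians of 11.25, 10.87, 10.15 and 9.31 in Shin-Hong and 9.42, 9.93, 9.10 and 9.50 in Man-Su, with 9.44 and 9.30 on the normal arrays. At 15 min 99 of 111 (89.2%, all features 38.3%) lay above both normal arrays, and at 120 min 69 (62.2%, all features 39%) lay below both. The mean of the Man-Su arrays of 15 to 60 min was below that of Shin-Hong in 95 of 111 (85.6%, all features 46.3%), with a median difference of -0.89 log2 units, and at 120 min the median difference was 0.33. The steady and the step rules choose members by their Shin-Hong levels, so a gap to any other array is partly built in, and these levels are a description.

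**Figure D3:**
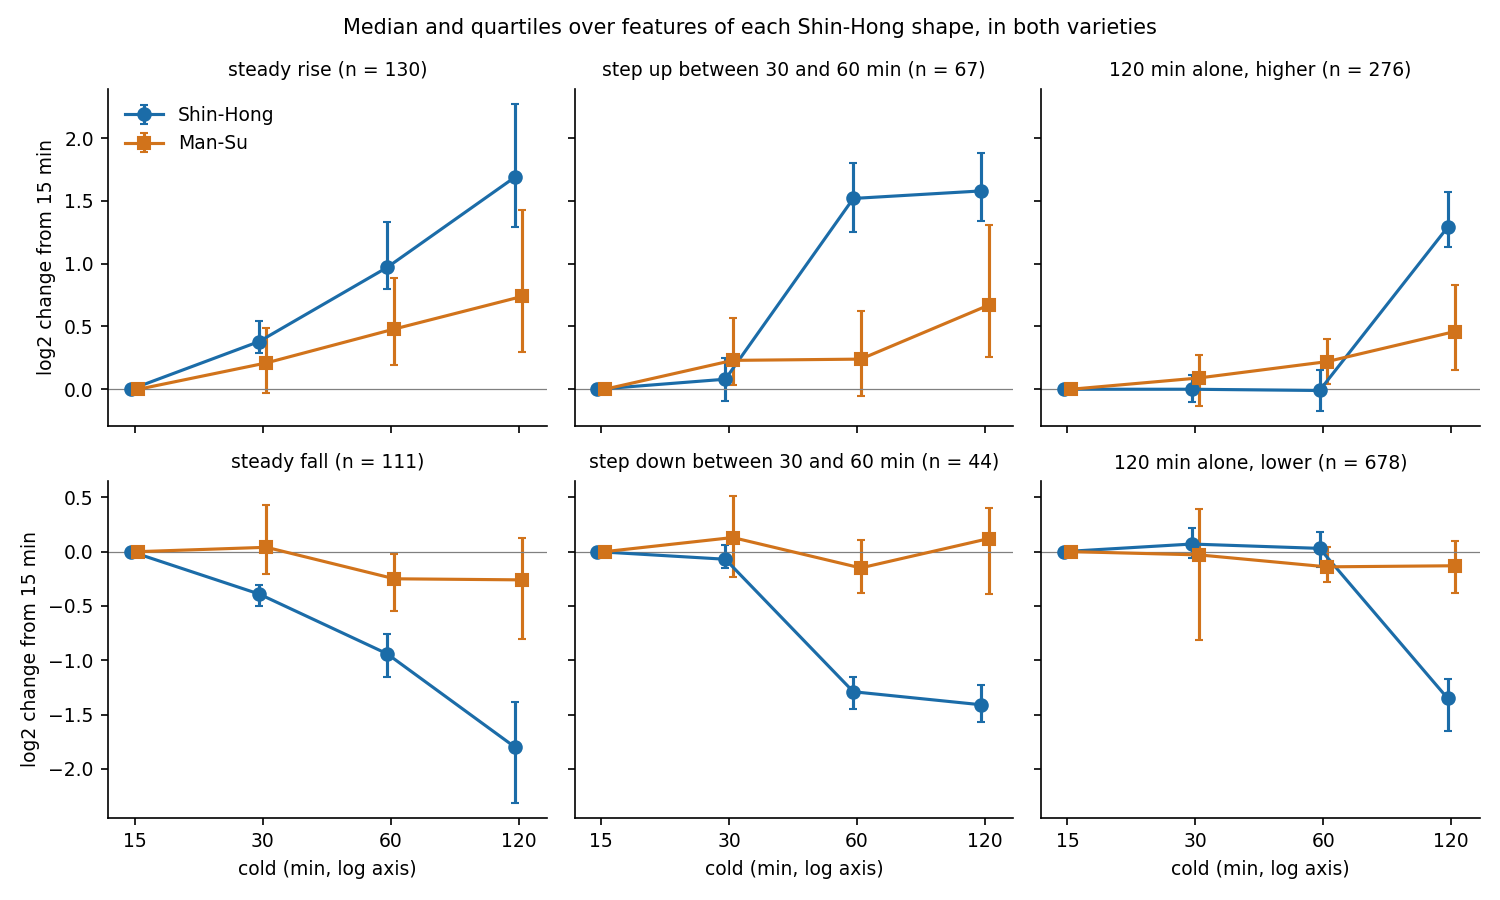
Median log2 change from 15 min (vertical axis) against minutes of cold (horizontal axis, log scale) for each shape class, with bars from the lower to the upper quartile over its members, Shin-Hong and Man-Su drawn apart. The upward steady class reaches 1.69 in Shin-Hong and 0.74 in Man-Su at 120 min, and the 2 classes of the 120 min array alone stay near 0 until 60 min in Shin-Hong.

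A step between 30 and 60 min, with each pair of arrays within 0.5 log2 units, was seen upward in 67 features (0.141%) and downward in 44 (0.0925%). Late minus early had a median of 1.49 units (2.80-fold) upward and -1.31 (2.48-fold) downward. The largest upward step lay at 8.60 and 8.82 early and at 12.05 and 11.97 late. In Man-Su it was 9.21, 10.73, 11.37 and 12.81, which climbed at every time in place of a step. The second was 10.53 and 10.46 early and 13.14 and 13.21 late, whereas Man-Su stayed between 12.37 and 12.64. Early Shin-Hong lay below Man-Su in this feature and late Shin-Hong above it. Among the 37 measured downward members, the largest step was 8.85, 9.09, 7.43 and 7.04, and Man-Su read 8.09, 7.25, 8.11 and 8.21. The widest late minus early of all 44 was -3.17, in a member that was not measured.

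Of the 67 upward step features, 55 (82.1%, all features 54.1%) had late minus early of the same sign in Man-Su, with a median of 0.36, but 1 feature in Man-Su met the upward step rule. Of the 44 downward ones, 29 (65.9%, all features 45.9%) had the same sign, the median was -0.08 and 0 reached 1 unit. Without the Man-Su 30 min array the counts were 55 upward (82.1%, all features 47.1%) and 24 downward (54.5%, all features 52.9%), so the downward share was near that of all features. At 15 min 40 of the 44 downward step features (90.9%, all features 38.3%) lay above both normal arrays, with a median of 2.22 units above their mean, and at 120 min 26 did (59.1%, all features 39%). The upward step features went from a median of 0.51 units below that mean (-0.51) at 15 min to 1.15 above it at 120 min.

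The 120 min array stood apart in many more features. Against the mean of the other 3 times, limma called 1566 features higher (3.29%) and 2782 lower (5.85%) at 120 min, with 14660 at an unadjusted p under 0.05. This fit treats 15, 30 and 60 min as if they were replicates and the lone 120 min array as if it varied like them, so steady features can be called too. In this fit Brapa_ESTC000600 differed by 3.94 ± 0.91 (SE) and Brapa_ESTC032280 by -2.84 ± 0.76. Both were chosen by their change from 15 to 120 min on these same arrays, so a large difference at 120 min follows from the choice. Without the 30 min array the calls numbered 708, without the 15 min array 2600 and without the 60 min array 14004.

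By size, a departure of the 120 min array alone needed the other 3 arrays within 0.5 log2 units and a gap of at least 1 unit to the nearest of them. This held upward in 276 features (0.58%) and downward in 678 (1.43%). By the same rule the 15 min array stood alone in 7 features (0.0147%), the 30 min array in 2 (0.00421%) and the 60 min array in 41 (0.0862%). The difference from the mean of the other 3 arrays had a median of 1.30 units (2.46-fold) upward, with 25 at 4-fold or more, and of -1.37 (2.59-fold) downward, with 70. The gaps nearest the threshold were 1.0 inside and 0.998 outside upward, and -1.001 and -0.997 downward.

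**Figure D4:**
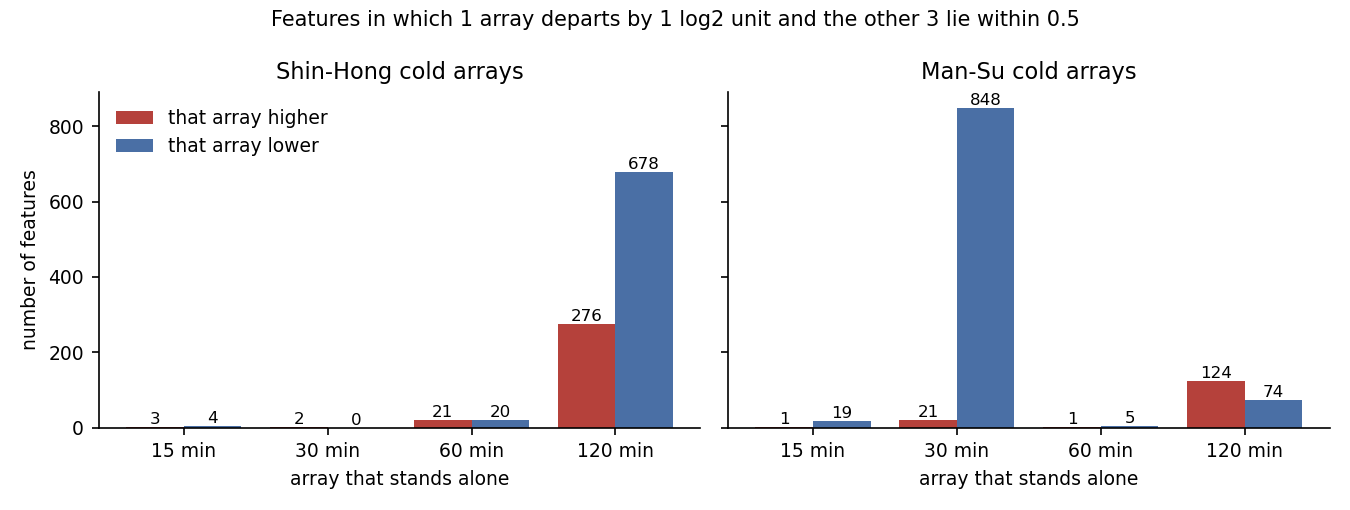
Number of features (vertical axis) in which one array stood alone, by the array (horizontal axis) and by direction, for the Shin-Hong and the Man-Su cold arrays under the same rule of size. In Shin-Hong nearly all lie at 120 min (276 higher and 678 lower), and in Man-Su most lie at 30 min (848 lower).

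Members that were higher at 120 min alone had bright examples in both varieties, taken here from the 272 measured ones. The largest lay at 9.26, 9.35 and 9.18 through 60 min and at 13.13 at 120 min, and in Man-Su it lay at 9.58, 9.87, 10.74 and 13.08. The second lay at 9.65, 9.58, 9.97 and 13.49, and in Man-Su at 10.10, 10.75, 10.66 and 12.66. The third lay at 9.06, 9.19, 9.04 and 12.80, and in Man-Su at 9.95, 9.37, 9.99 and 12.35. In all 3 the 120 min array was the highest in either variety and lay above both normal arrays, whose levels ran from 8.88 to 9.75.

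Of the 678 members that were lower at 120 min alone, 479 were measured, and the widest departure of all, -3.62 units, was not among these. The 3 largest measured examples began above Man-Su. The first lay at 10.61, 10.52 and 10.82 and then at 7.37, with Man-Su at 8.13, 8.78, 8.16 and 7.81 and the normal arrays at 7.84 and 7.38. The second lay at 10.76, 10.72 and 10.87 and then at 7.89, with Man-Su at 8.71, 9.29, 8.48 and 7.62. The third lay at 10.33, 10.01 and 9.83 and then at 7.43, with Man-Su at 7.81, 8.83, 7.78 and 7.53. In these 3 features Man-Su lay below Shin-Hong at 15, 30 and 60 min, and the 120 min array was the lowest of each variety. At 120 min against its other times, Man-Su differed by -0.54, -1.20 and -0.61, and Shin-Hong by -3.28, -2.90 and -2.63.

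Over the whole classes, Man-Su at 120 min against its other times had the same sign in 234 of the 276 higher features (84.8%, all features 54.3%), and reached 0.5 units in 96 (34.8%, all features 5.34%) and 1 unit in 44 (15.9%, all features 1.01%). The median was 0.33. Without the Man-Su 30 min array 221 of 276 (80.1%, all features 48.6%) had the same sign and 103 (37.3%, all features 5.92%) reached 0.5 units. Of the 678 lower features, 332 (49%, all features 45.7%) had the same sign, 112 (16.5%, all features 4.59%) reached 0.5 units and the median was 0.01. Without the Man-Su 30 min array these counts were 400 (59%, all features 51.4%) and 89 (13.1%, all features 4.49%). The same rule found 124 features higher and 74 lower at 120 min alone in Man-Su. The varieties shared 14 of the higher ones. These were 5.07% of the Shin-Hong set (all features 0.261%) and 11.3% of the Man-Su set (all features 0.58%). Of the lower ones 13 were shared, 1.92% of the Shin-Hong set (all features 0.156%) and 17.6% of the Man-Su set (all features 1.43%).

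The higher and lower classes differed in how bright they were. The mean over 15, 30 and 60 min had a median of 10.57 in the higher class and 9.80 in the lower class, against 12.07 over all features. In the lower class 249 of 678 (36.7%) came from the dimmest decile of all features and 107 from the decile above it, and in the higher class 55 of 276 (19.9%) came from the dimmest. The lower class also had more of its members among deciles 7 to 10, at 132 (19.5%) against 28 (10.1%). On all 4 Shin-Hong arrays 272 of 276 higher features but 479 of 678 lower features were measured, against 46390 of all 47548 features. The 120 min array took part both in the choice of the classes and in this level, so a lower member was more apt to miss it. Of the lower ones, 84 fell below the random-sequence control on at least 1 array. The dim features of the 120 min array were also lower as a whole, as given above, and the part of this in the lower class was not tested.

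Divided by their level at 15 to 60 min, the members of the lower class had different values in Man-Su. Among the 429 outside the dimmest decile, Man-Su was lower at 120 min than at its other times in 297 (69.2%, all features of those deciles 47.9%), by 0.5 units or more in 109 (25.4%, all features of those deciles 4.76%). Without the Man-Su 30 min array these counts were 270 (62.9%, all 50.9%) and 87 (20.3%, all 4.62%). Among the 249 of the dimmest decile, Man-Su was lower at 120 min in 35 (14.1%, all features of that decile 25.6%). It was so by 0.5 units or more in 3 (1.2%, all 3.03%). Without the Man-Su 30 min array the counts were 130 (52.2%, all 56.1%) and 2 (0.803%, all 3.32%), both under the share of the decile. The Man-Su 30 min array, which also had many features below its control, was lower than the other Man-Su times by 0.5 units or more in 166 of these 249 (66.7%) and in 57.4% of all features of the decile. Outside the decile it was so in 49 of 429 (11.4%, all 10.1%). In Man-Su 848 features (1.78%) were lower at 30 min alone by the size rule, and 65 of them were in the lower class of Shin-Hong at 120 min. They were 9.59% of that Shin-Hong class (all features 1.78%) and 7.67% of the Man-Su set (all features 1.43%). Of these 65, 3 were measured on all Shin-Hong arrays. The lower class without features that also departed by 0.5 units in the Man-Su 30 min array held 463, and the higher class 271.

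**Figure D5:**
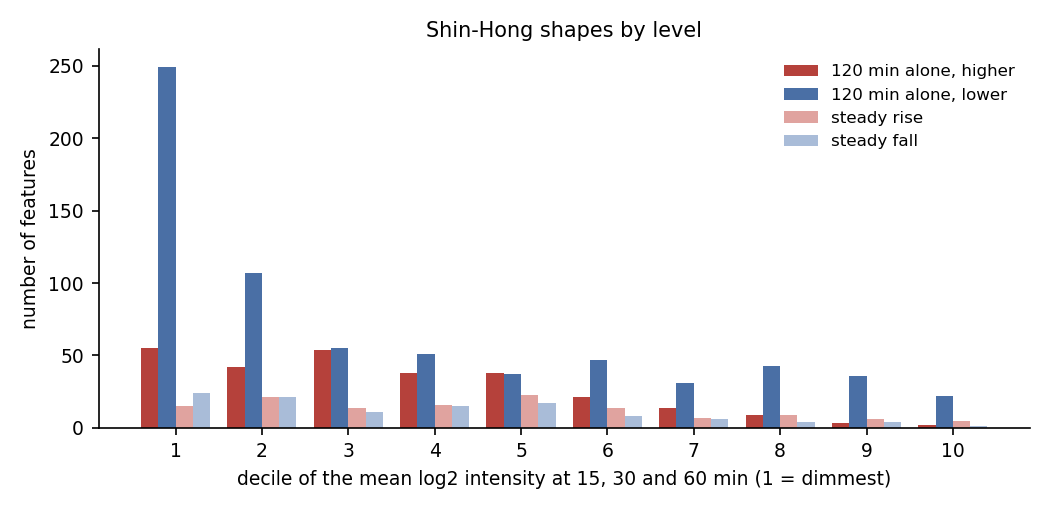
Number of features (vertical axis) of the classes of the 120 min array alone and of the steady classes, by decile of the mean log2 intensity at 15, 30 and 60 min (horizontal axis, 1 is dimmest). The lower class of the 120 min array is heaviest in decile 1, with 249 of its 678 members.

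Levels in the other variety set the 120 min classes apart once more. In the higher class the Man-Su mean of 15 to 60 min was above that of Shin-Hong in 249 of 276 features (90.2%, all features 53.7%), by a median of 0.83 log2 units, and at 120 min the median difference was -0.10. In the lower class it was below that of Shin-Hong in 581 of 678 (85.7%, all features 46.3%), by a median of -0.72, and at 120 min the median difference was 0.58. Since the rule chose members by their Shin-Hong levels, a gap to any other array is partly built into it, and no test was made. In the higher class 257 of 276 (93.1%, all features 39%) lay above both normal arrays at 120 min in Shin-Hong, against 80 (29%, all features 38.3%) at 15 min. In Man-Su 210 (76.1%, all features 42.3%) did so at 15 min. In the lower class 531 of 678 (78.3%, all features 39%) lay below both normal arrays at 120 min, with a median of -1.11 units from their mean, and 192 (28.3%, all features 38.6%) did so at 15 min.

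Without the 120 min array the steady courses changed in number. Over 15, 30 and 60 min alone, 327 features met the rule upward with 2 steps and a total of the same size, and 127 downward. Of these, 60 were among the 130 upward features and 46 among the 111 downward ones. The other features of the shorter course therefore did not go on by a further 0.25 units at 120 min.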

How the data were processed

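Total RNA was labelled with Cy3 and hybridised to NimbleGen arrays of oligonucleotides (labels' protocols). Each feature has 1 deposited intensity on a linear scale, which the authors made with RMA (robust multi-array average: background correction, normalization between arrays and summary of a feature's probes), per the submitters' processing notes. The sources used here state neither its version nor which arrays it normalized jointly. Background correction bears most on dim features, so these are reported beside the control. The files also hold another kind of value, the number of probes per feature, per the file headers: 7 for 46793 of 47548 features (98.4%) and 3 to 6 for the rest. A deposited table of the whole series held the same intensities to within 0.005. The 6 control features (5 barcodes and 1 random-sequence control over 57777 probes) stayed out of the tests.

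Intensities were taken to log2, with no further normalization and no filter. The lmFit and eBayes functions of limma 3.58.1 (R 4.3.3) were used, with Benjamini-Hochberg adjustment over all 47548 features and a call at an adjusted p under 0.05. Fits of 4 arrays had 2 residual degrees of freedom and the interaction of variety and phase on 8 arrays had 4. Nothing in the labels marks the arrays as separate cultures or plants, so p-values measure only the spread between these arrays, partly technical. The fits were tested on simulated data. Shape classes were counted by size. Their thresholds, the members and the naming rule were chosen with earlier results of these data known. The rule asked for gene names: 0 feature IDs matched the RefSeq gene table of assembly CAAS_Brap_v3.01 and the files name no gene, so the 2 largest upward and 2 largest downward steady features measured on all 4 arrays are given by ID, and others without. No sequences were used. Alternatives were other normalizations, a floor and a filter at the random-sequence control, a trended or pooled spread, the control level as a covariate, other class sizes, and each array left out.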

Additional observations from a re-analysis of the deposited data

Results flagged for a closer look

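The barcode controls, which are outside the cabbage features, were brighter on the Shin-Hong cold arrays than on the normal arrays. Their mean was 8.84 log2 units over the 4 Shin-Hong cold arrays (8.65 to 8.98) and 8.01 over the 2 normal arrays (7.88 and 8.13), a difference of 0.83. Among the 4 times the barcode mean was 8.93, 8.65, 8.78 and 8.98. In Man-Su it was 8.90 at 30 min and 7.82 to 8.27 at the other times. The part of this background in any class was not tested. No array measure of the 4 Shin-Hong arrays passed Dixon's critical value at 95%. The widest gaps relative to the range were 0.815 for the number of features below the random-sequence control and 0.801 for the mean correlation with the other arrays, both from the 120 min array.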

How the results depend on the processing

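With 1 array per time, the counts of calls depended on which array was left out, and such fits had 1 residual degree of freedom, with a lone array assumed to vary like the remaining pair. For late minus early, 0 calls became 0 to 14004 with each array left out in turn (0 without 15 min, 20 without 30 min, 14004 without 60 min and 834 without 120 min), 1 with the spread of all 8 cold arrays and 242 with the control level as a covariate. For the slope, 0 calls became 87 to 1252 with each array left out and 530 with a slope per hour. The 4348 calls at 120 min became 708 to 14004 with an array left out and 2318 with the spread of 8 arrays, while quantile normalization of the 4 arrays gave 1336 higher and 1774 lower. The interaction of variety and phase gave 4 calls with a trended spread and 0 with any array left out. Late minus early in Man-Su gave 0 to 1 with an array left out. For the size classes, steps of any size gave 530 upward and 672 downward steady features, a total of 2 log2 units gave 52 and 40, and 327 upward features met the rule without the 120 min array. At 2 units the step classes held 3 upward and 1 downward, and the classes of the 120 min array 17 higher and 48 lower. With the flat arrays within 0.25 units these were 27, 24, 152 and 312. Quantile normalization left 457 to 479 lower features at 120 min alone. The steady courses without 120 min, the classes without features that moved in the Man-Su 30 min array, the interaction on 6 arrays or paired by time, the lower class divided by level and the Man-Su readings without 30 min were chosen after seeing the data. Late minus early of the 4 named features kept its sign in all 48 settings. The features were chosen as steady on these same arrays, which fixes the sign when an array is left out. The settings that passed had an array left out or the control level as a covariate, with 1 residual degree of freedom. No paired analysis was possible because of a lack of replicate numbers in the labels. With the arrays of both varieties paired by cold time instead, the interaction gave 0 calls by limma (1284 features at an unadjusted p under 0.05). The cause of these shifts was not tested, and features near the random-sequence control have the least certain levels.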
